A study of Mus musculus with 2 samples.

Results

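The Gadd45 family and a set of genes controlled by the tumour suppressor p53 were examined in the liver of mice with and without Iah1, a gene for a homologue of a yeast enzyme that hydrolyses isoamyl acetate. The set comprised 10 genes: the 3 Gadd45 genes (Gadd45a, Gadd45b and Gadd45g), 6 p53 targets (Cdkn1a, Mdm2, Ccng1, Bax, Bbc3 and Phlda3) and Trp53, which encodes p53 itself. These genes were chosen by their known roles after the KO against WT values of the same arrays had been seen, Gadd45g among them, so the differences below describe the arrays and are not independent evidence. A gene was measured where a probe set of the array was annotated with that gene's symbol alone, which held for 7 of the 10, with 1 probe set each, out of 22180 genes measured in all. The probe set of Gadd45a was annotated with another gene as well, and Bax and Trp53 were not listed in the annotation table used, so these 3 genes were not analysed here.

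Both groups were male mice on a high-fat diet for 12 weeks from 6 weeks of age, housed singly and deprived of food for 4 hours before the livers were taken. The groups were Iah1-WT and Iah1-KO, the latter lacking the gene in the whole body and not in hepatocytes alone. Each was represented by 1 Affymetrix array that carried pooled liver RNA of 3 mice, so there is no replicate error, no test of genotype and no p-value, and the words higher and lower refer to these 2 arrays. The values are log2 RMA signals, an array brightness summarised over the probes of a probe set, and cannot be compared between genes. Iah1 itself was at 8.59 in WT and 3.90 in KO, as the genotype labels say. The hepatocyte markers of liver were bright on both arrays, Alb for example at 13.3 on each.

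As background, p53 is a transcription factor that is held low by the ubiquitin ligase MDM2 and is stabilised by DNA damage and other stress. It then induces genes for cell cycle arrest, such as Cdkn1a (p21), for apoptosis, such as Bax and Bbc3 (PUMA), and for its own restraint, such as Mdm2. The GADD45 proteins are small, acidic stress-induced proteins that bind PCNA, CDK1 and the kinase MAP3K4 and have been linked to arrest, p38 and JNK signalling, DNA repair and DNA demethylation. Gadd45a is the family member best known as a p53 target, while Gadd45b and Gadd45g are better known as genes that cytokines, growth factors and other signals induce without p53. In liver the Gadd45 genes are known to respond to regeneration, fasting and injury.

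Among the p53 targets, the start regions of Mdm2, Bax, Bbc3 and Phlda3 held no match to the p53 consensus site and are not printed. The start regions shown are those of Gadd45g, Gadd45b and the 2 targets with a match, Cdkn1a and Ccng1. They are RefSeq sequences of assembly GRCm38.p6, written 5′ to 3′ on the gene's strand, from 250 bases before to 50 bases after an annotated start. Capitals mark any p53 consensus site and, on either strand, the TATA-box letters TATAAA, the CCAAT element or the E-box letters CACGTG. In Cdkn1a the capitals join a pair of overlapping p53 matches and include a spacer. Gadd45g lies at chr13:51846425-51846724 (plus strand), Gadd45b at chr10:80929841-80930140 (plus strand), the upstream one of 2 Cdkn1a starts at chr17:29090729-29091028 (plus strand) and Ccng1 at chr11:40755237-40755536 (minus strand).
Gadd45g: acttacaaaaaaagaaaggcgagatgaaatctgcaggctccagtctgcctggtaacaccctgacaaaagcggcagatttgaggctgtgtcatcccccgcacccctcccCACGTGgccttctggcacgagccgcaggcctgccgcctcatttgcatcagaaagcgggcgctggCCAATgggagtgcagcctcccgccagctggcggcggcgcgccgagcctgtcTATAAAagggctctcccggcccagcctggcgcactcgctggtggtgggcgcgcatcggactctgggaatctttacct
Gadd45b: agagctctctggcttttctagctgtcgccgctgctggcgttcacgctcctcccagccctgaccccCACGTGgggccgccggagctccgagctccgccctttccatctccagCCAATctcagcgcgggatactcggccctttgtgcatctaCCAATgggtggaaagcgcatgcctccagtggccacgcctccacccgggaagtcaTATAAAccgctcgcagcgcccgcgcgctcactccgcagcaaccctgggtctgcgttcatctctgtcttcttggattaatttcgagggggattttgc
Cdkn1a: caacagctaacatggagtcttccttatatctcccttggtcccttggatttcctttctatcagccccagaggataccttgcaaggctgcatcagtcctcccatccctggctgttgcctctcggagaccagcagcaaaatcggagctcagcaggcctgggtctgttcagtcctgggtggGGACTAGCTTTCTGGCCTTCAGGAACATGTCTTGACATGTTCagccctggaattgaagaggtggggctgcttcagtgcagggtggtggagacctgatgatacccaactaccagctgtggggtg
Ccng1: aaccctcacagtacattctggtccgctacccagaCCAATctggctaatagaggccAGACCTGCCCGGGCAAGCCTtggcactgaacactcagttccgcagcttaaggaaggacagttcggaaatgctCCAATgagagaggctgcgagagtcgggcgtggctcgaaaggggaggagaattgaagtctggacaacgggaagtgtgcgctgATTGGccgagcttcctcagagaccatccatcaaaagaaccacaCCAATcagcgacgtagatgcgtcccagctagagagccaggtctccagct

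The starts of Gadd45g and Gadd45b held the same 3 short elements. Each had TATAAA (27 bases before the start in Gadd45g and 46 bases before it in Gadd45b), CACGTG and CCAAT (1 in Gadd45g and 2 in Gadd45b). The set was not shared by the whole family, since the Gadd45a window held 1 CCAAT but neither TATAAA nor CACGTG. It was also not particular to these genes, since the Trp53 window held all 3 elements, counting either strand. Over all 32851 start windows of this length, TATAAA was present in 13.6%, CACGTG in 7.15% and CCAAT in 37.4%. No letters matching the p53 consensus site, a pair of decamers 0 to 13 bases apart with at most 1 mismatch and an intact C and G in each core, were in the windows of Gadd45a, Gadd45b or Gadd45g. Of all windows, 0.627% held such a match.

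Among the 13 windows of the 10 members, matches to the p53 consensus site were found in the upstream Cdkn1a window and the Ccng1 window. In Cdkn1a the adjoining pair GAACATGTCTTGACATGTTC with 1 mismatch began 51 bases before the upstream start, and its first decamer also paired, with no mismatch, with an earlier decamer across a spacer of 12 bases. In Ccng1 the pair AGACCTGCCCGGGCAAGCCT with 1 mismatch began 195 bases before the start. These are matches of letters in short windows, and the known p53 sites of Mdm2, for example, lie inside the gene and outside such a window.

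Gadd45g stood far apart from Gadd45b, its 1 measured relative, and from the 5 measured p53 targets among the members. Its signal was 7.02 in the WT pool and 5.06 in the KO pool. KO minus WT was therefore -1.96 log2 units, and the KO pool was 3.89-fold lower. Both values were above the intensity filter of 4.68, the median over genes of the higher of a gene's 2 signals. Among the 11090 genes that reached this filter, its difference had rank 2 from the lowest, after Iah1 at rank 1. The 2651 genes whose mean signal lay within 0.5 log2 units of that of Gadd45g had differences with a standard deviation of 0.27, which describes genes of like brightness on these arrays and not the spread between mice.

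**Figure D1:**
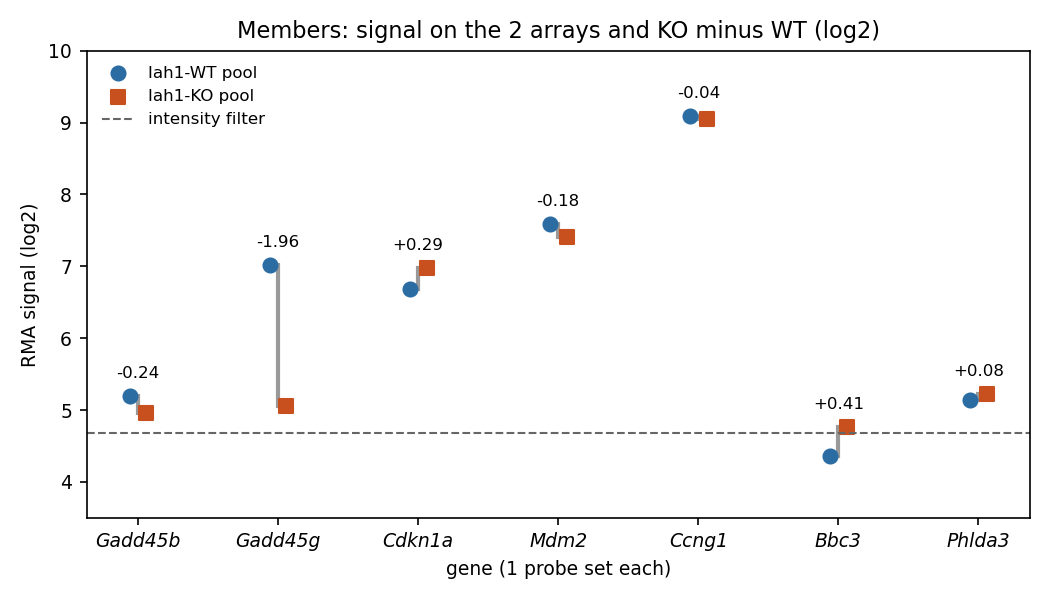
RMA signal (log2, vertical axis) of the 7 measured members on the Iah1-WT array (circles) and the Iah1-KO array (squares), with KO minus WT printed above each pair and the intensity filter of 4.68 as a dashed line. Gadd45g is the member with a long connecting line (7.02 to 5.06), and the other 6 differ by 0.41 or less in either direction. There are no error bars because each point is 1 array of pooled RNA, and heights cannot be compared between genes.

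Gadd45b, the relative first found as a gene of myeloid differentiation, had a signal of 5.20 in WT and of 4.96 in KO. It differed by -0.24, or 1.18-fold, with KO the lower. Both measured Gadd45 genes were thus lower in KO, as were 55.7% of all genes above the filter. The differences of Gadd45g and Gadd45b lay 1.72 apart on the log2 scale, and no shared direction of the family is read from them. The difference of Gadd45b was within the standard deviation of 0.32 among the 3058 genes of similar signal. Its rank from the lowest was 1847 of 11090.

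The arrest gene among the p53 targets went the other way. Cdkn1a, the inhibitor of cyclin-dependent kinases through which p53 stops the cell cycle, had a signal of 6.68 in WT and of 6.98 in KO. It was 0.29 higher in KO, or 1.22-fold. The standard deviation among the 2414 genes of similar signal was 0.21, and Cdkn1a had rank 889 from the highest.

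The feedback genes were close between the arrays. Mdm2, whose protein marks p53 for degradation, had a signal of 7.58 in WT and of 7.41 in KO. It differed by -0.18, or 1.13-fold with KO the lower, against a standard deviation of 0.18 among 2028 genes of similar signal. Ccng1, which encodes cyclin G1, a p53 target that recruits phosphatase 2A to MDM2, had a signal of 9.09 in WT and of 9.06 in KO. It differed by -0.04. The standard deviation among the 773 genes of similar signal was 0.16.

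The death and survival genes were dim. Bbc3, which encodes the BH3-only protein PUMA, had a signal of 4.36 in WT and of 4.77 in KO. By RMA values it was 0.41 higher in KO. Its WT value lay below the intensity filter and it passed only through the KO array, so against the filter it was at least 1.07-fold higher, a bound for the RMA values that leaves out measurement error. The standard deviation among 1742 genes of similar signal was 0.39. Only genes that reached the filter were counted, which at so low a signal favours genes that differ between the arrays and widens this spread. Phlda3, whose product is a p53-induced inhibitor of AKT, was at 5.15 in WT and 5.22 in KO, 0.08 higher.

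Counted by size, 1 of the 7 members was at least 1.5-fold lower in KO (Gadd45g) and 0 were at least 1.5-fold higher. Over all genes above the filter the shares were 2.45% lower and 1.47% higher, and nothing is read from the members' count, since this contrast was known when they were chosen. At a smaller threshold of 0.32 log2 units, Gadd45g was again the member lower, where 10.4% of all genes were, and Bbc3 the member higher, where 6.62% of all genes were. The call of Bbc3 rests on its WT value below the filter, and its bound of 1.07-fold does not reach that threshold. The 5 measured p53 targets among the members had a median difference of 0.08, with 3 above 0 and 2 below, beside a median of -0.02 over all 11090 genes. With only the genes above the 75th percentile of signal, which leaves out the dim Bbc3 and Phlda3, that median was -0.04. By sign alone, Gadd45g went with Mdm2 and Ccng1 and against Cdkn1a, Bbc3 and Phlda3. Little rests on the signs of Mdm2, Ccng1 and Phlda3. Their differences lay within the standard deviations among genes of similar signal (0.18, 0.16 and 0.31). The sign of Bbc3 rests on a WT value below the filter. Gadd45g differed from each of the 5 targets by at least 1.78 on the log2 scale.

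**Figure D2:**
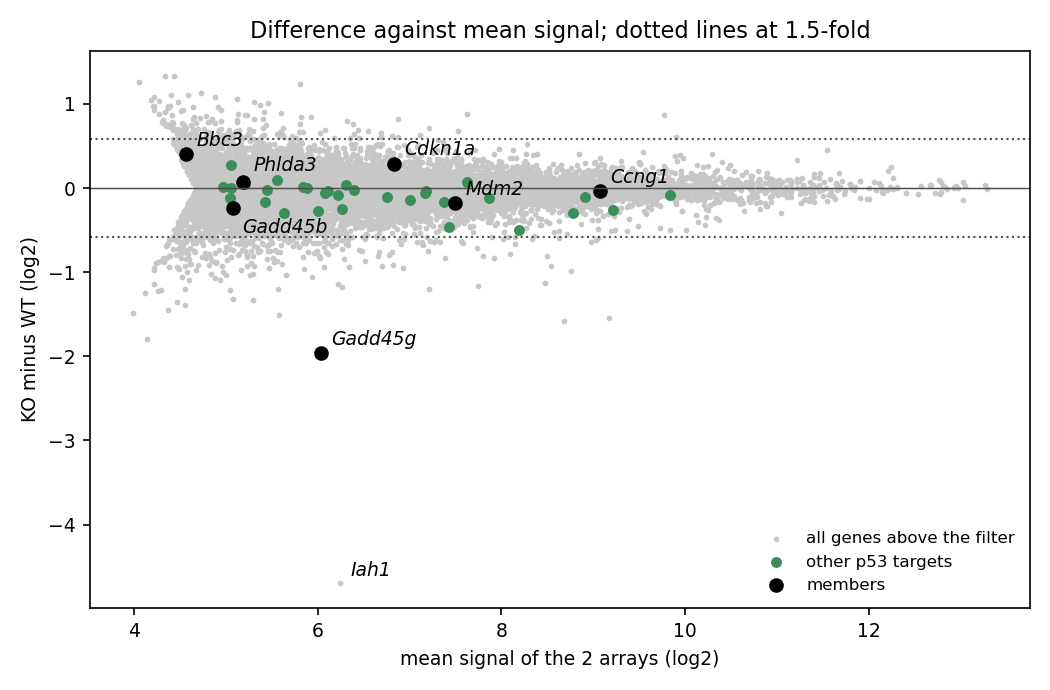
KO minus WT (log2, vertical axis) against the mean log2 signal of the 2 arrays (horizontal axis) for the 11090 genes above the intensity filter (grey), the members (black) and the other p53 targets (green), with dotted lines at 1.5-fold. Gadd45g at -1.96 lies below the grey cloud, with Iah1 at -4.69 beneath it, and the other members and the green points lie between the dotted lines.

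A wider list of 35 further p53 targets held no difference of the size seen for Gadd45g, which only Iah1 exceeded among all genes above the filter. Of the 35, 34 were measured and 31 passed the filter, and 0 of the 31 were at least 1.5-fold lower or higher in KO. At 0.32 log2 units, 2 were lower and 0 higher. Over all genes above the filter, 2.45% were lower and 1.47% higher at 1.5-fold, and 10.4% and 6.62% at 0.32. For 31 genes, such counts are not set apart from these shares. The median difference was -0.08, with 23 of 31 (74.2%) below 0, beside -0.02 and 55.7% over all genes above the filter. The differences ran from -0.50 to 0.28.

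The lowest of these were Plk3, a stress-responsive polo-like kinase gene (8.44 in WT and 7.94 in KO), and Casp6, which encodes an effector caspase (7.66 in WT and 7.19 in KO). Plk3 differed by -0.50 and Casp6 by -0.47, beyond the standard deviations of 0.17 and 0.18 among genes of similar signal. Their ranks from the lowest were 433 and 508 of 11090. Next came Trp53inp1, which promotes p53-dependent death and autophagy, at 8.93 in WT and 8.63 in KO, and Polk, a translesion DNA polymerase gene, at 5.78 in WT and 5.49 in KO. Their differences were -0.30 and -0.29.

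By role, every group of these targets had a median below 0, from -0.12 to -0.03, beside -0.02 over all genes above the filter. Only the 4 genes left over from the other groups all lay below 0, and slightly so. Counts below 0 stand beside 55.7% of all genes above the filter, and groups this small are not set apart from that share. Of 9 genes for cell death, 6 were below 0, from Casp6 to Pidd1, the scaffold of the PIDDosome, at 0.28. Of 5 genes for arrest and growth restraint, 3 were below 0, and Btg2, an antiproliferative gene, was the highest at 0.05. Of 4 genes for DNA repair and nucleotide supply, 3 were below 0, and Rrm2b, a ribonucleotide reductase subunit, was at 0.01. Of 5 genes for metabolism and redox defence, 4 were below 0. The 5 ran from -0.16 for Ddit4, an inhibitor of mTORC1, to 0.07 for Dcxr, with the sestrins Sesn1 and Sesn2 both at -0.03. Of 4 genes that act back on p53 or on its targets' messages and proteins, 3 were below 0. Zmat3, an RNA-binding protein gene, was the lowest at -0.27 and Ppm1d, a phosphatase that ends the p53 response, was at -0.08. This grouping was made after the values were seen.

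**Figure D3:**
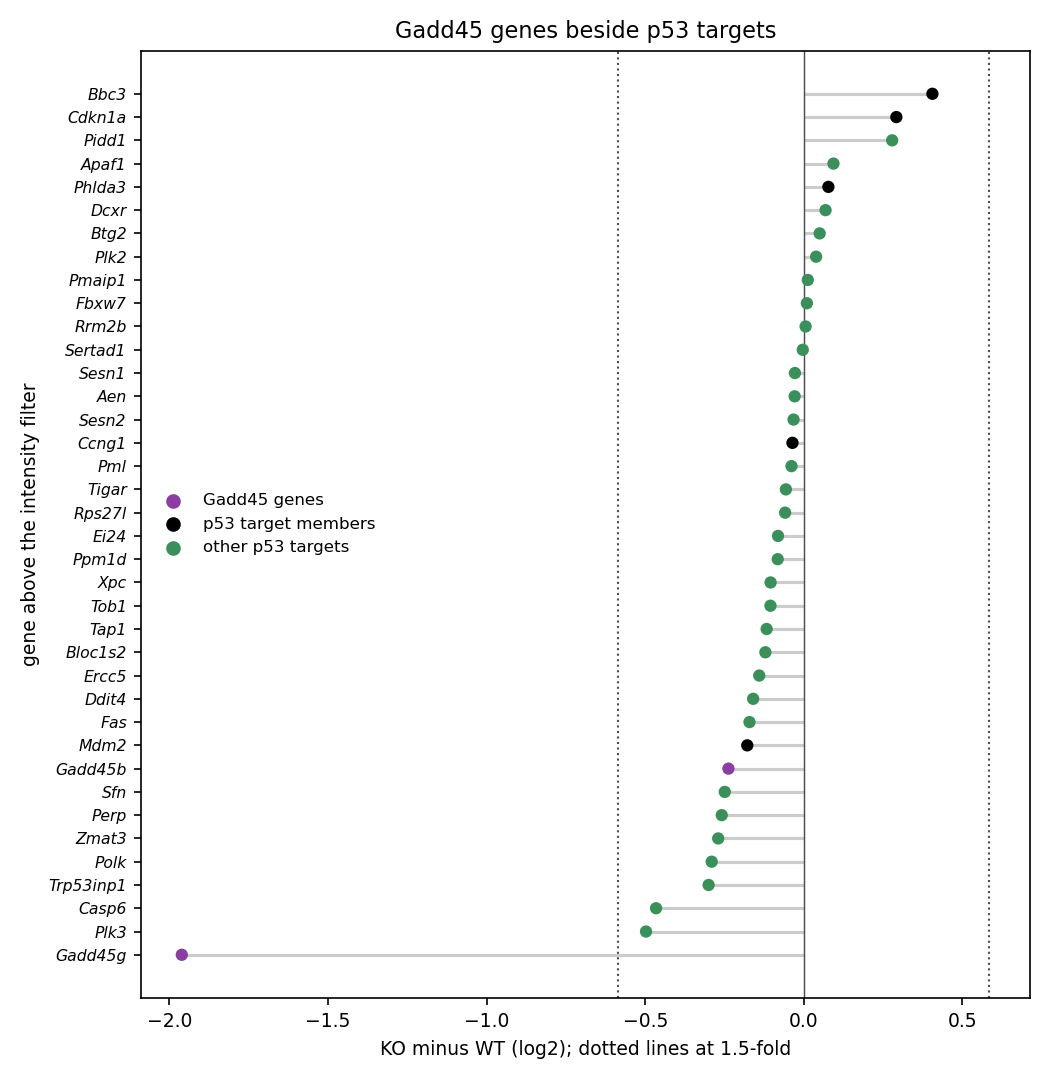
KO minus WT (log2, horizontal axis) of each gene above the intensity filter, ordered by its difference, for the Gadd45 genes (purple), the p53 targets among the members (black) and 31 other p53 targets (green), with dotted lines at 1.5-fold. Gadd45g at -1.96 lies alone to the left of the dotted line, and all other points lie between -0.50 (Plk3) and 0.41 (Bbc3).

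Genes that act on p53 were likewise close between the arrays. Of 23 listed regulators, 22 were measured and 17 passed the filter, with 10 below 0, a median of -0.05 and none past 1.5-fold. Counts below 0 in this and the following lists stand beside the 55.7% of all genes. Counts past 1.5-fold stand beside 2.45% lower and 1.47% higher over all genes above the filter. The checkpoint kinase gene Atr differed by 0.46 (WT 4.96, KO 5.42) and the acetyltransferase gene Kat5 by 0.40 (WT 5.69, KO 6.09). Trp53bp1, which encodes the repair protein 53BP1, was at -0.37, and Mdm4, the MDM2 relative that blocks p53's activation domain, at -0.24.

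Genes whose proteins GADD45 proteins bind or act through were measured for 14 of 18 listed, and 12 passed the filter. Their median was -0.06, with 8 below 0. Tet2, which encodes a 5-methylcytosine oxidase of the DNA demethylation route, was 1.60-fold lower (WT 6.67, KO 6.00) and was the 1 gene of the list past 1.5-fold. The kinase genes Mapk8 (JNK1) and Map2k4, which activates JNK, were at -0.26 and -0.18, and Cdk1, the mitotic kinase that GADD45 proteins inhibit, was at 0.14. Map3k4, the kinase that GADD45 proteins switch on, was at 5.24 in WT and 5.20 in KO.

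Factors known to induce Gadd45 genes without p53 had a median of -0.02 over the 17 that passed the filter, and none was past 1.5-fold. Smad2, a mediator of TGF-beta and activin signals, was the lowest at -0.44 (WT 7.17, KO 6.73). Stat5b, the mediator of growth hormone signals in liver, was at -0.27, and the forkhead factor gene Foxo1 at 0.23. The immediate early factor gene Egr1 was at -0.27, and its KO value of 4.56 lay below the filter.

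Of 7 other inhibitors of cyclin-dependent kinases measured, 6 passed the filter, with a median of -0.19. Of these, 5 lay below 0, which for so few genes is not set apart from the 55.7% below 0 over all genes. Cdkn2c (p18) was at -0.37, Cdkn2d (p19) at -0.28 and Cdkn1b (p27) at -0.26, while Cdkn2b (p15) was at 0.38. Genes of the BCL2 family other than the members had a median of -0.12 over 12 genes above the filter, 9 of them below 0. The survival gene Bcl2l2 was at -0.26 and the death genes Bak1 and Bok at -0.25 and -0.23. Bad was at 0.24, with its WT value below the filter.

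Cell cycle genes that p53 lowers through p21 were mostly dim. Of 15 measured, 9 were below the filter on both arrays, and the 6 that passed had a median of -0.02. Ccnb2, a mitotic cyclin gene, was 0.49 higher in KO, and Cdc20, an activator of the anaphase-promoting complex, was at -0.43. Both passed the filter on 1 array only, Ccnb2 in KO and Cdc20 in WT. Aurka, a mitotic kinase gene, was at -0.16.

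Stress-induced genes outside the p53 list included Mt2, which was among the 4 genes with a difference closest to that of Gadd45g. Of 20 measured, 19 passed the filter, 13 lay below 0 and the median was -0.26. The metallothionein genes Mt2 and Mt1, which zinc and glucocorticoids induce, were the 2 past 1.5-fold. Mt2 differed by -1.58 (WT 9.47, KO 7.89) and Mt1 by -1.13 (WT 9.04, KO 7.92). Ier3, an immediate early survival gene, was at -0.55 with its KO value below the filter. Btg1, an antiproliferative gene, differed by 0.53 (WT 5.82, KO 6.35).

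Over all genes above the filter, those with a difference closest to that of Gadd45g were Zfp932 (-1.80), Mt2 (-1.58), Serpina4-ps1 (-1.55) and Orm3 (-1.50). Likeness here is the distance between KO minus WT values over 2 arrays, and says nothing of a pattern across conditions. Zfp932, a zinc finger gene, was at 5.03 in WT and at 3.24 in KO, below the filter, so against the filter it was at least 1.28-fold lower and its place as the nearest gene rests on a value not shown to be above background. Orm3, an orosomucoid of the acute phase family, was at 6.33 in WT and 4.83 in KO, and none of the 4 is in the lists of p53 targets.

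Markers of some other liver cells were lower in the same array as Gadd45g. All 12 markers of sinusoidal endothelium lay below 0, from -0.83 for Lyve1 to -0.25, with Tek at -0.66 and a median of -0.56, and 5 were past 1.5-fold. Their summed linear signal was 3168 in WT and 2212 in KO. All 12 macrophage and Kupffer cell markers lay below 0 as well, from -0.81 for C1qb to -0.09, with Vsig4 at -0.71 and a median of -0.47, and 3 were past 1.5-fold. Their summed signal was 2344 in WT and 1628 in KO. Over all genes above the filter, 2.45% were at least 1.5-fold lower. In whole liver RNA, fewer cells of a type and less RNA per cell cannot be told apart. The part of these cells in the differences of the Gadd45 genes and p53 targets was not tested.

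The 9 hepatocyte markers had a median of -0.01, with Serpina1e at -0.49 and Cps1 at -0.13, and a summed signal of 43689 in WT and 42588 in KO. Of 8 stellate cell markers 7 lay below 0, with a median of -0.18, Lrat at -0.52 and Des at 0.93. The WT value of Des lay under the filter. Their sums were 2019 and 1775. Of 5 measured cholangiocyte markers, 2 passed the filter, Sox9 and Krt23, both at -0.17. The sums over all 5, including those below the filter, were 167 in WT and 148 in KO. None of 8 T and NK cell, 4 B cell or 6 neutrophil markers passed the filter on either array.

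**Figure D4:**
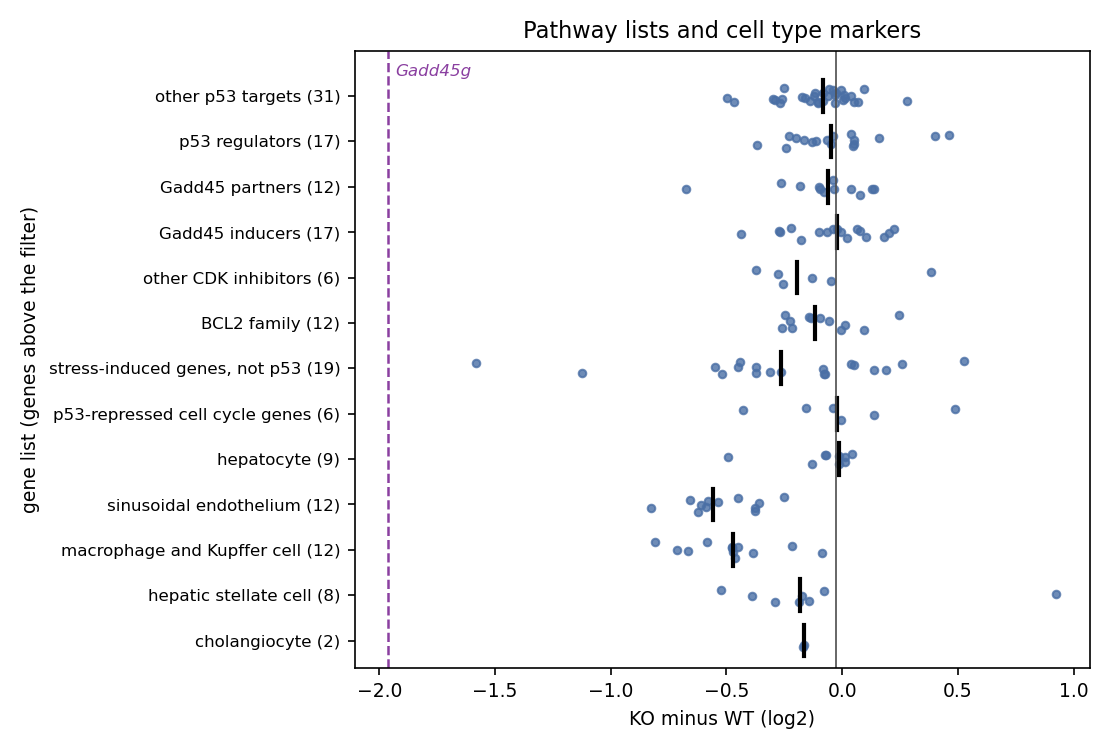
KO minus WT (log2, horizontal axis) of genes above the intensity filter in each pathway list and marker list (rows, with the number of genes), where points are genes, spread vertically for legibility, and black bars are medians. The grey line is the median over all genes (-0.02) and the dashed line is Gadd45g at -1.96, with no listed gene to its left and Mt2 at -1.58 the nearest.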

How the data were processed

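RNA of 3 mice per genotype was pooled on each array, per the series' design text, and 100 ng entered the labelling, per the labels' protocols. The deposited log2 values were made with RMA in Affymetrix Expression Console 1.3.0, per the submitters' processing notes; RMA equalises the 2 distributions and compresses differences of dim probe sets. No genome build for the array annotation is stated in the sources used.

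Of 41345 probe sets, 23521 had 1 gene symbol, 1814 several and 16010 none. Genes were the mean of their single-symbol probe sets, and 11090 of 22180 passed an intensity filter (higher array at or above the median, 4.68). With 1 array per genotype, KO minus WT was described and counted at 1.5-fold, with no test; array number limits precision. The count step was tested on simulated data. Members and lists were chosen with earlier results of these data known. Named genes are all members, the 4 genes nearest to Gadd45g, up to 4 per pathway list and 2 per marker list by absolute difference, and Iah1; others named by role or as list examples were added after values were seen. Alternatives were the threshold, filter, centring, quantile normalization, a loess fit (span 0.4) and the brightest probe set. Python 3.11.15, pandas 2.3.3 and statsmodels 0.14.6 were used. All 10 members had a start window in the RefSeq table.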

Additional observations from a re-analysis of the deposited data

How the results depend on the processing

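Subtracting the median difference, quantile normalizing the arrays again or subtracting a loess fit left the difference of Gadd45g between -1.96 and -1.92. No other measured member changed sign under these alternatives. Taking the brightest probe set could not change any member, since each has 1 probe set, so it is no check of them. The count of 1 member at least 1.5-fold lower held at 2-fold, at 0.32 log2 units, without a filter and at the 75th percentile. The count of members higher was 1 in place of 0 at 0.32 log2 units; this is Bbc3, whose WT value lies below the filter and whose bound against it is 1.07-fold. Counts over all genes moved with the threshold and filter: from 272 lower and 163 higher to 34 and 15 at 2-fold, 1151 and 734 at 0.32 log2 units, 576 and 572 without a filter, and 61 and 18 with the filter at the 75th percentile. The median of the other p53 targets ranged from -0.12 to -0.04. A difference or median was taken as unmoved where an alternative shifted it by less than 0.27, the standard deviation between probe sets of 1 gene (604 genes), which covers neither mice nor hybridisation. This margin is wider than the medians of the p53 targets, so such a median could change sign and still count as unmoved. The median of the p53 targets among the members did so, from 0.08 to -0.04 with the filter at the 75th percentile. The members have 1 probe set each, so no second probe set checks them. No paired analysis was possible because each genotype has 1 array.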

Other observations

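A few genes of the p53 network lay below the intensity filter on both arrays and entered no count above. They were picked out after their values were seen. Eda2r, a p53-induced receptor of the tumour necrosis factor family, had signals of 3.48 in WT and of 4.32 in KO. It differed by 0.84, and its signal is not shown to be above background. Chek1, a checkpoint kinase gene, was at 3.86 and 4.34, and Trp73, the gene for the p53 relative p73, at 3.92 and 4.35. Chek2, a kinase that acts on p53, was at 4.52 in WT and 4.16 in KO.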
